A study of Homo sapiens with 6 samples.

Results

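The LINC long noncoding RNAs described here are the genes whose symbol is LINC followed by a number and whose estimated counts summed to at least 60 over the 6 libraries of the study. Of 2104 such symbols listed, 516 had a count and 137 met the rule, out of 60623 genes listed in all and 15042 genes with the same minimum sum. The RNA came from DU145 cells, a long-established line of human prostate cancer whose genotype the labels give as WT, grown in RPMI-1640. One group of 3 libraries had received the solvent DMSO, and the other group of 3 had received 1 µM CCS1477 for 24 h. CCS1477 (inobrodib) binds the bromodomain of the histone acetyltransferases p300 and CBP. Libraries were made from polyadenylated RNA. Whether the 3 replicates of a group were cultured separately is not stated, and the p-values therefore reflect no more than the variation among these libraries, part or all of which could be technical.

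Long noncoding RNAs are often spliced and usually polyadenylated transcripts made by RNA polymerase II that carry no long reading frame. A LINC number is given to a gene of this kind that was placed between coding genes when it was named. Some act in the nucleus on neighbouring genes or on chromatin, others act in the cytoplasm, and for most no function is known. Many are expressed in few cell types, and p300 and CBP mark the enhancers and promoters from which such genes are often transcribed.

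By the positions in the files, 92 of the 137 genes overlapped another listed gene on either strand and 45 overlapped none. Listed genes of every kind were included, such as RNA5SP236 at LINC02577 and RPS12P2 at LINC00857. Overlap with coding genes alone was not counted. GENCODE 29 listed all 137 and classed 105 as lincRNA, 15 as processed transcript, 7 as transcribed unprocessed pseudogene, 5 as antisense, 2 as bidirectional promoter lncRNA, 1 as transcribed unitary pseudogene and 2 as protein coding. One of the protein coding entries was LINC02693, which that release names C17orf51. In the current gene name table, 14 of the 137 carry another symbol, among them LINC01578 (CHASERR), LINC00346 (PRECSIT) and LINC01184 (SLC12A2-DT). The median gene had up to 4 exons and a longest transcript of 2518 bases, and 16 genes had a single exon. They lay on 22 chromosomes, with 22 genes on chromosome 1 and 14 on chromosome 2.

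Promoter windows from RefSeq (GRCh38.p14), running from 250 bases before to 50 bases after the annotated start, were matched to 93 of the 137 genes. The windows of 5 genes that passed the test below are printed 5′ to 3′. LINC00963, the most abundant of these in counts, is shown for its run of GC boxes (GGGCGG) and 1 AP-1 site (TGANTCA), LINC00857 because it diverges from ANXA11, and LINC00910 as a gene that was higher. Capitals in these 3 mark motifs found on either strand. The LINC00963 window is chr9:129488410-129488709 on the plus strand, 11714 bases inside the gene start given in the files. The LINC00857 window is chr10:80207460-80207759 on the plus strand, and its capitals are a GC box. The LINC00910 window is chr17:43388849-43389148 on the minus strand, and its capitals are the TATA box letters TATAAA.
LINC00963: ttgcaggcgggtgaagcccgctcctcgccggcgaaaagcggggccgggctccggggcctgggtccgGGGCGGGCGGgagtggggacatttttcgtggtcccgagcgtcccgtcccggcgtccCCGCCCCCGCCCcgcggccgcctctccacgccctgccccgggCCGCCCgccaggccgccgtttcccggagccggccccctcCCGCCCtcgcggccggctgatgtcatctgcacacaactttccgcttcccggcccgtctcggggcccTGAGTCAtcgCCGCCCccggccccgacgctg
LINC00857: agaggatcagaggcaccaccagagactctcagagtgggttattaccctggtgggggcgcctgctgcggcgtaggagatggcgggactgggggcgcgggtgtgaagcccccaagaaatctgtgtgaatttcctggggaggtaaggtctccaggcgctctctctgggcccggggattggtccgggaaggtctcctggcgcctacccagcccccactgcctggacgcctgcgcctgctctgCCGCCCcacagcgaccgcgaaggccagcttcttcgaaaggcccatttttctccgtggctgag
LINC00910: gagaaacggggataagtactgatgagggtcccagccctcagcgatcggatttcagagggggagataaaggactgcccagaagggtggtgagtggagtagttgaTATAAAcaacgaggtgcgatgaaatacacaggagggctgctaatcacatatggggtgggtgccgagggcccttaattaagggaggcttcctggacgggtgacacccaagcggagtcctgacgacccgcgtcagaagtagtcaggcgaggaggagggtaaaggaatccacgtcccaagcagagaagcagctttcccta

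LINC01106 and LINC01123 are printed because they are duplicated copies of each other in part. Their windows are chr2:110384487-110384786 on the minus strand and chr2:109986730-109987029 on the plus strand. Both hold the same run of 289 bases, and capitals mark the 11 bases of each window that lie outside it.
LINC01106: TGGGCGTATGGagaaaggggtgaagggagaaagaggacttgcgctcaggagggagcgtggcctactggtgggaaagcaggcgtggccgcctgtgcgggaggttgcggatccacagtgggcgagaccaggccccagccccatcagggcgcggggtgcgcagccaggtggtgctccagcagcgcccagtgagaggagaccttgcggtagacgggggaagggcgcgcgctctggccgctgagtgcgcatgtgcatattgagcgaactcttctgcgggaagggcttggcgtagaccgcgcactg
LINC01123: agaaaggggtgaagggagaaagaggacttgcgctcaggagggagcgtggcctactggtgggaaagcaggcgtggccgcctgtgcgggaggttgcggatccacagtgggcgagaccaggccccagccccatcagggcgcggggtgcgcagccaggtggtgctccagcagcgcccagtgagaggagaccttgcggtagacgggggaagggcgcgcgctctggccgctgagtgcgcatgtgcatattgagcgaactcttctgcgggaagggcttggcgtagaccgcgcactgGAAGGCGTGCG

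The search covered 6 motifs on both strands, and a motif could overlap another. The 93 matched genes had 107 windows, since some had several starts. A GC box was present in 54.2% of these windows against 45% of all 35116 windows in the RefSeq table, and the AP-1 letters in 9.35% against 7.71%. TATAAA stood in 12.1% against 11.5%, the E-box CACGTG in 7.48% against 7.26%, the STAT letters TTCCNGGAA in 1.87% against 1.15% and the CRE letters TGACGTCA in 1.87% against 1.85%. Median GC content was 60.7% in the windows of the LINC genes and 58.7% in all windows. These shares are descriptions, and a match to letters is not a bound site.

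Libraries held 8286883 to 11956748 counts. DMSO and CCS1477 libraries were separated on the first principal component of all tested genes (48.5% of the variance). DMSO 2 and DMSO 3 stood farthest apart on the second (19.9%). The epithelial keratins KRT8 and KRT18 were at 681.6 to 758.0 and 773.3 to 844.8 TPM, and KLK3, PTPRC, PECAM1 and DCN were at 0 in all 6 libraries. At least 135 of the 137 LINC genes had 3 or more counts in each library, where 3 counts corresponded to 0.255 to 0.368 CPM, the unit of counts scaled to library size. Such floors cover counting error only.

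LINC RNAs made up a small part of the counted RNA. Their share of all counts was 0.0978%, 0.0989% and 0.107% in DMSO libraries 1, 2 and 3, and 0.0942%, 0.0960% and 0.0948% in CCS1477 libraries 1, 2 and 3. All 3 CCS1477 values lay below the DMSO values. Without LINC00963 and LINC00707, described below, the share of the other 135 genes was 0.0818%, 0.0818% and 0.0901% in DMSO and 0.0855%, 0.0867% and 0.0865% in CCS1477, and the groups overlapped. Per length, the median gene had a mean of 3.30 TPM, a length-scaled unit, the lowest 0.478 and the highest 79.8. Of the 137, 16 had a mean under 1 TPM and 23 a mean over 10 TPM.

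The difference between CCS1477 and DMSO was tested with edgeR's quasi-likelihood method on the estimated counts, with Benjamini-Hochberg adjustment over all 14928 tested genes and a threshold of 0.05. Of the 137 genes, 132 passed the filter on low counts. LINC01116, LINC00313, LINC00920, LINC02701 and LINC02454 did not and have no test. With CCS1477, 12 of the 132 were lower (9.09%) and 2 were higher (1.52%). Among all tested genes, 10.7% were lower, 7.23% were higher and 17.9% were called in either direction. The share of LINC genes that were lower was near the background. The other 12109 tested genes whose summed counts lay in the same range had 9.65% lower and 7.23% higher. Of the 132, 6 were lower by over 2-fold (4.55%) and 0 were higher by over 2-fold, against 3.07% and 1.11% of all tested genes. Among the 12109 genes of the same count range, 421 were lower by over 2-fold and 154 were higher by over 2-fold. At an unadjusted p under 0.05 there were 27 LINC genes (20.5%), against 31.7% of all tested genes.

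The median log2 fold change of the 132 was -0.01, with quartiles of -0.40 and 0.28, and 66 values lay on each side of 0. For all tested genes the median was -0.003 and the quartiles were -0.24 and 0.22. CPM values of the groups did not overlap for 35 of the 132 genes (26.5%), of which 23 were lower and 12 higher, against 35.9% of all tested genes. The LINC genes were measured less precisely, with a median SE of 0.305 on the log2 scale against 0.146 for all tested genes. More calls came from genes with more counts. Of 46 tested genes with a sum of 367 to 5519 counts, 8 were lower and 2 higher (median SE 0.19). Of 45 genes with 112 to 360 counts, 2 were lower and 0 higher (median SE 0.34), and of 41 with 60 to 111 counts, 2 were lower and 0 higher (median SE 0.50).

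**Figure D1:**
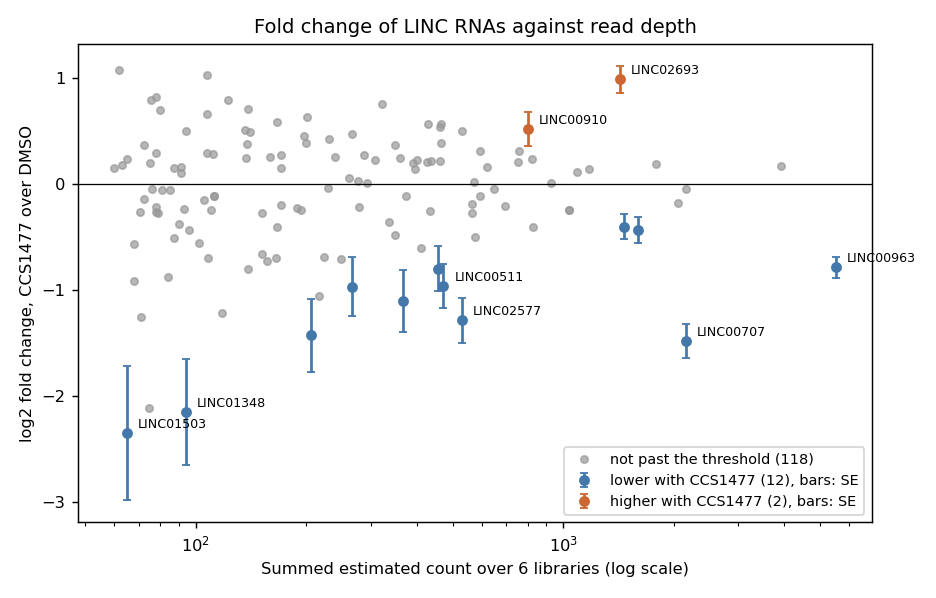
Log2 fold change (CCS1477 over DMSO) of the 132 tested LINC genes against their summed estimated count over 6 libraries on a log axis, with blue for the 12 lower genes, orange for the 2 higher genes, grey for 118 others and SE bars on called genes. Called genes with low counts have large falls and wide bars, and LINC00963 and LINC00707 are lower with many counts behind them.

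Leaving out libraries moved these counts and the counts over all genes. The lower genes numbered 8 without DMSO 1 or without CCS1477 1, 6 without CCS1477 2 and 7 without CCS1477 3. In the same fits the share of all tested genes that were lower was 6.4% without DMSO 1, 7.59% without CCS1477 1, 6.08% without CCS1477 2 and 6.76% without CCS1477 3. The higher LINC genes numbered 1 without DMSO 1, CCS1477 2 or CCS1477 3, where 3.65%, 3.21% and 3.16% of all genes were higher, and 5 without DMSO 3, where 8.55% were. With scaling by library size alone, 10 LINC genes were lower and 3 higher, and 9.12% of all genes were lower and 9.77% higher.

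LINC00707 and LINC00963 had the smallest adjusted p, and both fell. LINC00707 (chr10:6779549-6879450), a cancer-associated lincRNA, was at 49.1, 62.9 and 41.5 CPM in DMSO libraries 1 to 3 and at 20.9, 16.2 and 18.0 CPM in CCS1477 libraries 1 to 3. The highest CCS1477 library lay far below the lowest DMSO library. It fell with a log2 fold change of -1.48 ± 0.16 (SE, edgeR adjusted p = 0.000111), from 51.2 ± 10.8 to 18.4 ± 2.39 CPM (SD, n = 3). LINC00963 (chr9:129476946-129513687) has been described in the progression of prostate cancer to androgen independence. It was at 113.0, 110.8 and 127.0 CPM in DMSO and 64.4, 74.5 and 64.2 CPM in CCS1477, so that the groups were far apart. Its log2 fold change was -0.79 ± 0.10 (SE, edgeR adjusted p = 0.000297). On the TPM scale it stood at 59.49, 63.39 and 51.72 in DMSO and 34.89, 37.84 and 31.86 in CCS1477. LINC00707 had estimated counts that were not whole, and those of LINC00963 were whole.

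LINC02577 and LINC00511 also fell in every library. LINC02577 (chr7:106774955-106838480) was at 9.87, 14.3 and 13.1 CPM in DMSO and 5.04, 5.82 and 4.33 CPM in CCS1477. Its log2 fold change was -1.29 ± 0.21 (SE, edgeR adjusted p = 0.00174). LINC00511 (chr17:72290091-72640472), reported as tumour promoting in several carcinomas, was at 11.0, 10.2 and 9.80 CPM in DMSO and 4.37, 4.88 and 6.61 CPM in CCS1477. Its fold change was -0.97 ± 0.21 on the log2 scale (SE, edgeR adjusted p = 0.00824).

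The next falls were in LINC00346 and LINC01588, genes of lower abundance, and both calls ended when some single libraries were left out. LINC00346 (chr13:110863987-110870251), also known as PRECSIT, is a p53-regulated RNA linked to STAT3 signalling in squamous carcinoma of the skin. It was at 6.04, 8.62 and 10.8 CPM in DMSO and 2.46, 4.47 and 4.79 CPM in CCS1477, and the log2 fold change was -1.10 ± 0.30 (SE, edgeR adjusted p = 0.0237). Adjusted p rose to 0.0509 without DMSO 3, 0.0799 without CCS1477 1 and 0.0547 without CCS1477 2. LINC01588 (chr14:49927571-50105043) was at 4.85, 6.31 and 3.19 CPM in DMSO and 1.90, 2.08 and 1.37 CPM in CCS1477, with a log2 fold change of -1.43 ± 0.34 (SE, edgeR adjusted p = 0.0137). Without DMSO 1, DMSO 2 or CCS1477 3 its adjusted p was 0.0505, 0.053 or 0.0617. The lowest DMSO library of either gene stayed above the highest CCS1477 library.

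LINC01348 and LINC01503 showed the largest fitted falls with the fewest counts. LINC01348 (chr1:235065479-235074220) had 24, 36 and 19 counts in DMSO and 2, 5 and 8 counts in CCS1477, or 2.04, 3.07 and 2.33 CPM against 0.224, 0.519 and 0.912 CPM. Its log2 fold change was -2.15 ± 0.50 (SE, edgeR adjusted p = 0.0114), and adjusted p was 0.056 without CCS1477 2. LINC01503 (chr9:129332300-129359541), described in squamous carcinoma downstream of TP63, had 30, 16 and 10 counts in DMSO and 6, 2 and 1 counts in CCS1477. At 3 or more counts it was detected in all 3 DMSO libraries and in 1 CCS1477 library, and no other LINC gene had that pattern. Its log2 fold change was -2.35 ± 0.63 (SE, edgeR adjusted p = 0.0237). The call ended without DMSO 1 (adjusted p = 0.125), without CCS1477 2 (0.107) and without CCS1477 3 (0.103). It lies 117405 bases from LINC00963 on chromosome 9, and both were lower.

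LINC00665 and LINC00857 were lower by the smallest amounts. LINC00665 (chr19:36313067-36331770), a tumour-associated RNA, was at 34.2, 28.9 and 28.8 CPM in DMSO and 23.6, 22.9 and 21.8 CPM in CCS1477, and the log2 fold change was -0.43 ± 0.12 (SE, edgeR adjusted p = 0.0324). LINC00857 (chr10:80207372-80219657), studied in lung cancer, was at 28.0, 28.2 and 27.3 CPM in DMSO and 20.7, 22.0 and 20.5 CPM in CCS1477, and the log2 fold change was -0.40 ± 0.12 (SE, edgeR adjusted p = 0.0343). Groups were separate for both, but the calls lay near the threshold. Adjusted p for LINC00665 was 0.15 without DMSO 1, 0.0668 without CCS1477 1, 0.109 without CCS1477 2 and 0.115 without CCS1477 3. For LINC00857 it was 0.104 without DMSO 1, 0.0725 without DMSO 2, 0.0925 without CCS1477 1, 0.0916 without CCS1477 2 and 0.112 without CCS1477 3, and 0.0616 in DESeq2. With scaling by library size alone it was 0.0516 for LINC00665 and 0.0564 for LINC00857.

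LINC01106 (chr2:110375138-110384442) and LINC01123 (chr2:109987063-109996140) were lower together. They lie 378998 bases apart, and their longest GENCODE 29 transcripts, of 2443 and 2436 bases, aligned over 1597 columns with 88.3% identity. LINC01106 was at 7.74, 10.9 and 10.5 CPM in DMSO and 5.04, 5.40 and 6.27 CPM in CCS1477, with a log2 fold change of -0.80 ± 0.21 (SE, edgeR adjusted p = 0.0225). LINC01123 was at 5.53, 5.63 and 6.49 CPM in DMSO and 2.02, 3.74 and 3.19 CPM in CCS1477, with a log2 fold change of -0.97 ± 0.28 (SE, edgeR adjusted p = 0.0323). In all 6 libraries both genes had estimated counts that were not whole while their sum was whole to within 1e-06 of a count, so the split of shared reads between the copies is uncertain.

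Counted as 1 gene, a setting chosen after seeing the data, the pair does not depend on that split. Their summed level was 13.3, 16.6 and 17.0 CPM in DMSO and 7.05, 9.14 and 9.46 CPM in CCS1477, and no value of one group reached the other. The summed log2 fold change was -0.86 ± 0.18 (SE, edgeR adjusted p = 0.00695). Leaving out each library in turn gave adjusted p between 0.0103 and 0.0317 for the sum. Taken singly, LINC01106 lost its call without DMSO 2 (adjusted p = 0.0633), CCS1477 1 (0.0749) or CCS1477 2 (0.0812). LINC01123 lost it without DMSO 1 (0.0772), DMSO 3 (0.0616), CCS1477 1 (0.102) or CCS1477 3 (0.078).

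Both genes that were higher lie on chromosome 17. LINC02693 (chr17:21428263-21574517) was at 15.7, 17.1 and 17.2 CPM in DMSO and 32.4, 30.02 and 36.7 CPM in CCS1477. Every CCS1477 library lay well above every DMSO library, and its log2 fold change was 0.99 ± 0.13 (SE, edgeR adjusted p = 0.000367). The gene overlaps 10 other listed genes, among them the pseudogene PDLIM1P2 on its own strand and RPL21P120 on the other. Reads of overlapping genes cannot be told apart where the strand setting of the counting is unknown. LINC00910 (chr17:43338741-43389199) was at 11.5, 10.2 and 12.6 CPM in DMSO and 14.2, 18.0 and 16.6 CPM in CCS1477. Its log2 fold change was 0.52 ± 0.16 (SE, edgeR adjusted p = 0.0456), and it overlaps RNU2-4P on its own strand. That call ended without DMSO 1 (adjusted p = 0.11), DMSO 2 (0.103), CCS1477 2 (0.17) or CCS1477 3 (0.129), and in DESeq2 (0.0523).

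**Figure D2:**
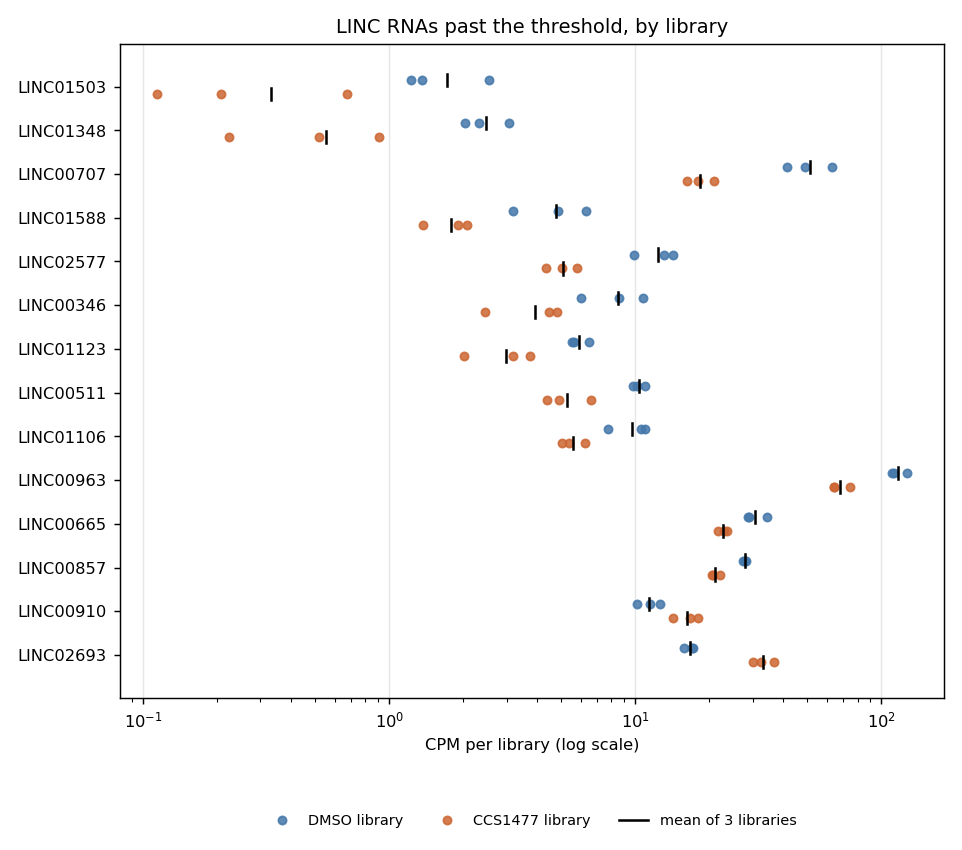
CPM of the 14 LINC genes past the threshold in each library (log axis), ordered from the largest fall at the top to the largest rise at the bottom, with blue points for DMSO, orange points for CCS1477 and a bar for the mean of 3 libraries. In each of the 14 rows the 3 CCS1477 points lie wholly on one side of the 3 DMSO points, from 0.114 CPM for LINC01503 to 127.0 CPM for LINC00963. The rows were chosen by the test on these same libraries, and groups did not overlap for 35.9% of all tested genes.

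The 4 calls that held in all 17 alternatives were LINC00707, LINC00963 and LINC00511, which were lower, and LINC02693, which was higher. All 4 overlap other listed genes on either strand: LINC00707 overlaps 4, LINC00963 2, LINC00511 3 and LINC02693 10. How far reads of those genes enter their counts was not tested. LINC02577 lost its call only on the TPM scales, log2(TPM + 1) and log2(TPM + 0.1). On the log2(TPM + 1) scale 3 LINC genes were lower and 1 was higher, where 2.86% and 1.96% of all tested genes were called. The other 9 calls each ended without at least 1 library.

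**Figure D3:**
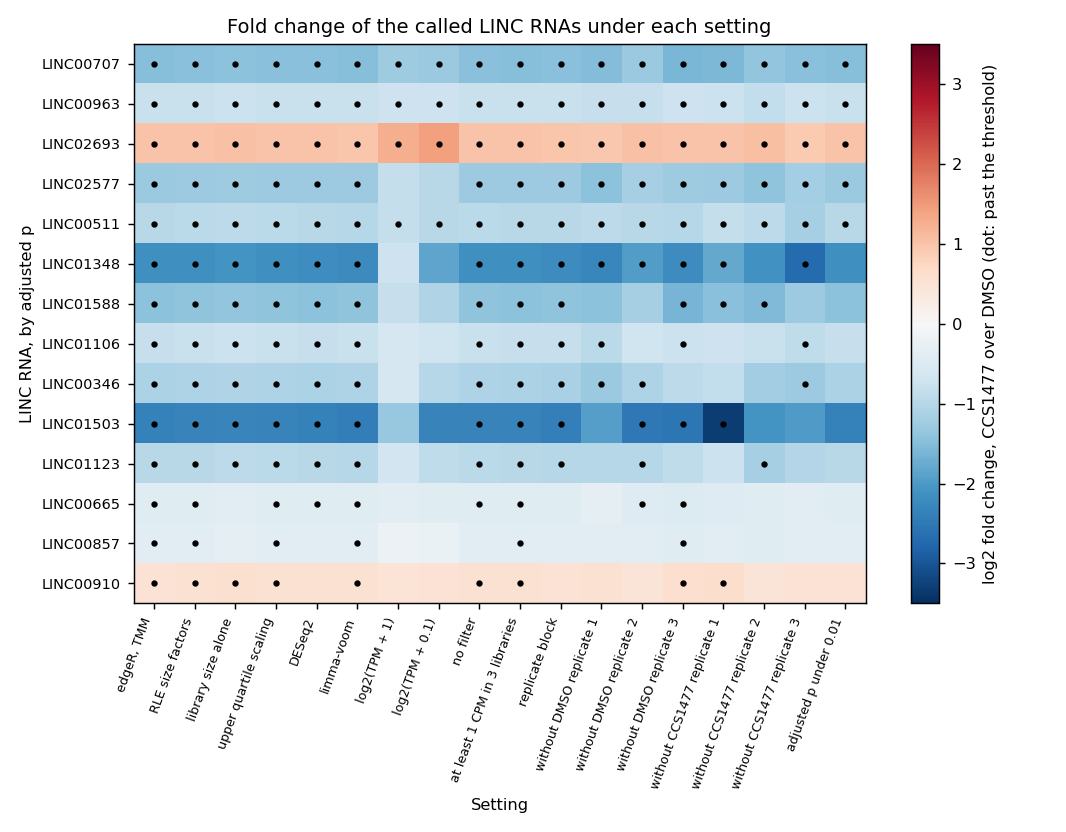
Log2 fold change (CCS1477 over DMSO, colour) of the 14 called LINC genes, in order of adjusted p, under the main fit and 17 alternatives, with a dot where the gene was past the threshold of that setting. Rows for LINC00707, LINC00963, LINC02693 and LINC00511 carry a dot in every column, and LINC00857 in 6 of 18.

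Some genes narrowly missed the threshold or had no test, and are named after their values were seen. LINC00319, on chromosome 21, was at 2.30, 2.05 and 1.47 CPM in DMSO and 1.01, 0 and 0.342 CPM in CCS1477, with a log2 fold change of -2.12 ± 0.69 (SE, edgeR adjusted p = 0.0531) on counts and of -0.62 on the log2(TPM + 1) scale. LINC00313, which had no test, lies 8058 bases from it and was at 1.11, 2.30 and 4.53 CPM in DMSO and 0.448, 0.519 and 0.684 CPM in CCS1477. The nearest named gene of both, the kinase gene SIK1, was lower with a log2 fold change of -1.28 (edgeR adjusted p = 0.0269). SIK1 has a near-identical copy, SIK1B, and the estimated counts of LINC00319 and LINC00313 were not whole. LINC00265 stood at a log2 fold change of 0.75 (edgeR adjusted p = 0.0536) and LINC00668 at -0.60 (adjusted p = 0.0557). Groups of these 4 LINC genes did not overlap, which was also so for 35.9% of all tested genes.

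The most abundant LINC RNAs per length were mostly not called. LINC01578, or CHASERR, which lies beside CHD2 and is known to restrain it, was at 95.14, 72.63 and 76.21 TPM in DMSO and 81.05, 78.44 and 75.51 TPM in CCS1477. The groups overlapped, and its log2 fold change in counts was -0.18 ± 0.14 (SE, edgeR adjusted p = 0.422), beside 0.13 for CHD2 (adjusted p = 0.334). LINC02210 was at 37.85, 42.94 and 25.02 TPM in DMSO and 42.34, 52.80 and 43.25 TPM in CCS1477 (log2 fold change in counts 0.19, adjusted p = 0.383). LINC01145 had 23.72 to 35.34 TPM in DMSO and 25.37 to 39.13 TPM in CCS1477 (-0.05, adjusted p = 0.841), and LINC00467 had 20.42 to 30.16 and 25.95 to 32.83 TPM (0.11, adjusted p = 0.669). These 3 had overlapping groups in TPM. LINC00205 had 20.40 to 26.22 TPM in DMSO and 15.14 to 21.16 TPM in CCS1477 but a log2 fold change of 0.17 in counts (adjusted p = 0.351), so the 2 scales pointed in opposite directions.

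For 3 abundant genes the TPM of single libraries departed from their counts. LINC00680 was at 103.98 TPM in DMSO 2 and between 6.66 and 11.48 TPM in the other 5 libraries, while its counts gave 5.29 CPM in DMSO 2 and 7.15 to 12.5 CPM in the others. LINC02802 was at 170.10 TPM in DMSO 1 against 27.73 to 66.12 TPM in the others, while DMSO 1 had the lowest CPM, 4.76 against 6.66 to 8.09. LINC01002 was between 19.84 and 50.08 TPM with overlapping groups and at 8.53 to 13.0 CPM. All 3 had estimated counts that were not whole. Their log2 fold changes in counts were 0.50, 0.14 and 0.31, and edgeR adjusted p was 0.197, 0.726 and 0.277. The high mean TPM of LINC00680 rests on DMSO 2. Over all 132 tested LINC genes, 22 had the opposite sign on the log2(TPM + 1) scale.

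**Figure D4:**
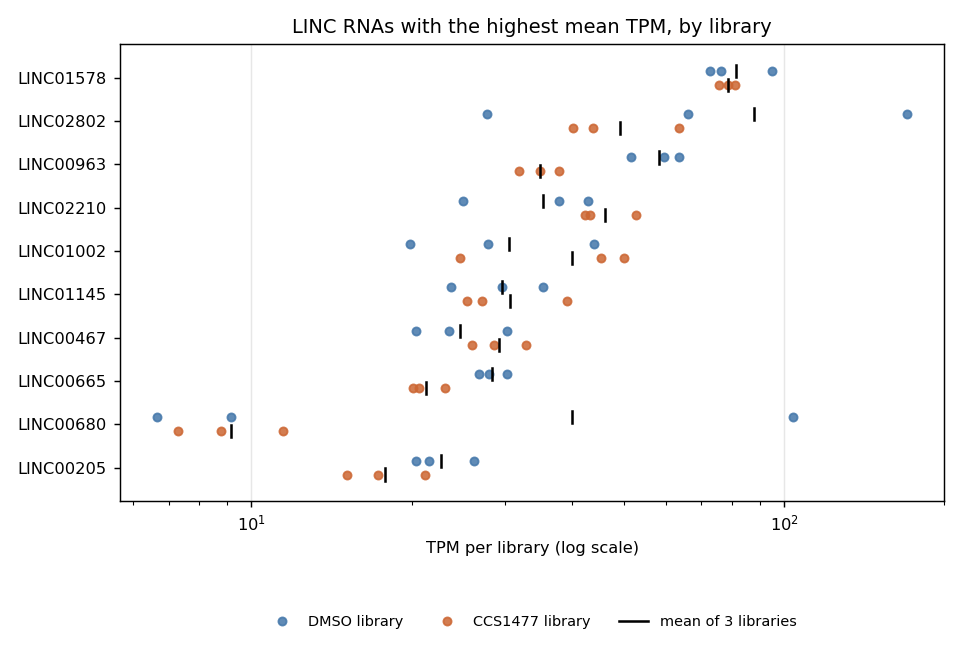
TPM per library (log axis) of the 10 LINC genes with the highest mean TPM over all 6 libraries, highest at the top, with blue points for DMSO, orange points for CCS1477 and a bar for the mean of 3 libraries. The groups are separate for LINC00963 and LINC00665, and 1 DMSO point stands far from the rest for LINC02802 and LINC00680.

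In that order LINC01578 (mean 79.8 TPM) came first, then LINC02802 (68.6), LINC00963 (46.5), LINC02210 (40.7), LINC01002 (35.3), LINC01145 (30.04), LINC00467 (26.9), LINC00665 (24.8), LINC00680 (24.6) and LINC00205 (20.3). The ranges over the 6 libraries overlapped between each gene and the next in this order. At the other end, the rule took LINC01116 and LINC02323 with a sum of 60 counts and LINC00920 with 61, and left out LINC02057 with 59, LINC02482 with 56 and LINC00884 with 55.

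Long noncoding RNAs often share regulation with genes beside them, so each tested LINC gene was set beside its nearest named gene, chosen by position. Among the 14 called LINC genes, 5 had a called neighbour. Of the 118 tested LINC genes not called, 7 had a neighbour that was higher and 16 a neighbour that was lower. Across all tested genes, 17.9% were called in either direction. Of the 5 called neighbours, 4 are described. LINP1, a scaffold RNA of DNA end joining that lies 39017 bases from LINC00707 on the same strand, fell from 22.6 ± 4.02 to 11.6 ± 1.06 CPM (SD, n = 3, log2 fold change -0.95, edgeR adjusted p = 0.00227). MAP2K3, which encodes an activating kinase of p38 and lies 113031 bases from LINC02693, rose from 71.9 ± 9.53 to 111.6 ± 18.5 CPM (SD, n = 3, log2 fold change 0.63, edgeR adjusted p = 0.00719). ANXA11, an annexin gene 1800 bases from LINC00857 and transcribed away from it, fell from 193.0 ± 9.28 to 157.4 ± 7.50 CPM (SD, n = 3, log2 fold change -0.29, edgeR adjusted p = 0.0316).

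LINC00665 and its neighbour moved in opposite directions. ZFP14, a zinc finger gene 2683 bases from LINC00665, rose from 4.03 ± 0.416 to 6.77 ± 1.12 CPM (SD, n = 3, log2 fold change 0.76, edgeR adjusted p = 0.045). For 9 of the 14 the neighbour was not called: NTMT1 beside LINC00963 stood at 0.08, CCDC71L beside LINC02577 at -0.23, SLC39A11 beside LINC00511 at -0.42, TOMM20 beside LINC01348 at -0.15 and VCPKMT beside LINC01588 at 0.16 on the log2 scale. ANKRD10 beside LINC00346 stood at 0.29 and IER5L beside LINC01503 at -0.51. The pseudogenes ZBTB45P2 and ZBTB45P1, which overlap LINC01106 and LINC01123 on the other strand, stood at -1.58 ± 1.19 and -0.30 ± 0.78 (SE). In sign, 9 of the 14 pairs matched, among them those of both pseudogenes.

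Across all 132 pairs, 67 had the same sign, and the log2 fold changes had a Pearson coefficient of 0.26 and a Spearman coefficient of 0.17. These coefficients are descriptions over genes measured in the same 6 libraries. For the 27 pairs that overlap, the Pearson coefficient was 0.34, and for the 11 divergent pairs with starts within 2000 bases it was -0.16. The 125 distinct neighbours had 12.8% lower and 7.2% higher, against 10.7% and 7.23% of all tested genes. One divergent pair, chosen after its values were seen, was LINC01184, at 14.7, 15.4 and 17.6 CPM in DMSO and 13.1, 12.9 and 9.92 CPM in CCS1477 (log2 fold change -0.41, edgeR adjusted p = 0.111), and the ion transporter gene SLC12A2, which was higher at 1.20 (adjusted p = 4.6e-05). Their starts are 594 bases apart.

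**Figure D5:**
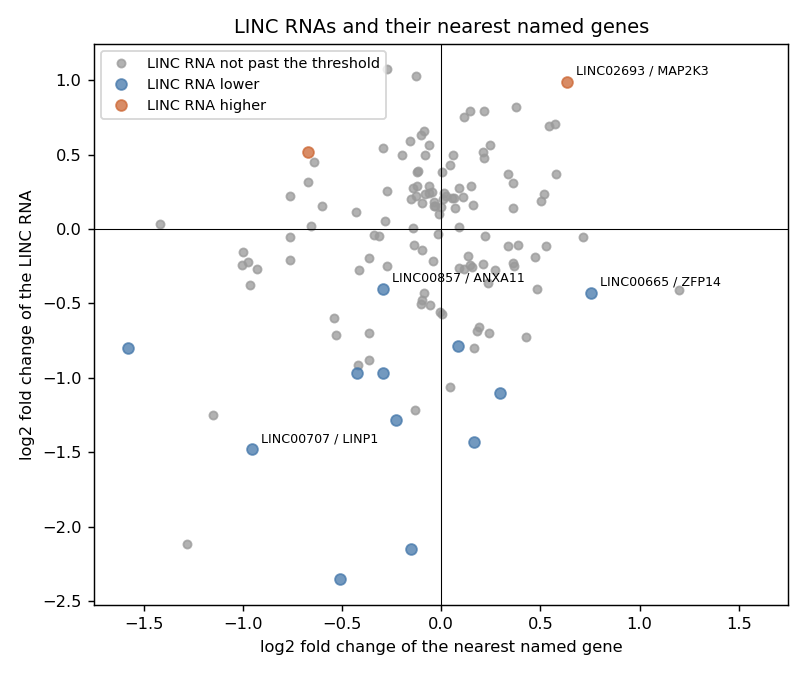
Log2 fold change (CCS1477 over DMSO) of each of 132 tested LINC genes (vertical axis) against that of its nearest named tested gene (horizontal axis), with blue for lower, orange for higher and grey for other LINC genes. Labels mark 4 pairs in which both were called, 3 with the same sign and 1 with opposite signs.

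By structure, 10 of 100 tested lincRNA-class genes were lower and 1 was higher, and 2 of 15 processed transcripts were lower and 0 higher. Among the 43 tested genes that overlap no other listed gene, 3 were lower and 0 higher, with 7 (16.3%) at an unadjusted p under 0.05. Among the 89 that overlap one, 9 were lower and 2 higher. Of all tested genes, 10.7% were lower, 7.23% were higher and 31.7% had an unadjusted p under 0.05. Estimated counts were not whole for 25 of the 137 (18.2%), against 14.4% of all tested genes, and 4 of these 25 were among the 14 called: LINC00707, LINC01106, LINC01123 and LINC00665. MicroRNA or small nucleolar RNA genes of GENCODE 29 lie on the same strand within 4 LINC genes. None of the 4 was called, where 17.9% of all tested genes were called. LINC00472, the host of the microRNAs MIR30A and MIR30C2, stood at 2.72, 2.82 and 3.06 CPM in DMSO and 4.59, 4.05 and 3.08 CPM in CCS1477 (log2 fold change 0.45, edgeR adjusted p = 0.317).

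A list of other long noncoding RNAs with names in place of LINC numbers was read for comparison. Of 54 listed, 39 were tested, 5 were lower (12.8%) and 3 higher (7.69%), and the median log2 fold change was -0.16. CYTOR, which has a near-identical copy, stood at -1.04 (edgeR adjusted p = 0.00333), and the snoRNA hosts SNHG6 and ZFAS1 at -0.64 and -0.54 (adjusted p = 0.00966 and 0.0287). The microRNA hosts MIR22HG and MIR31HG were higher at 0.79 and 0.73 (adjusted p = 0.00205 and 0.0147). Other hosts of both kinds were not called, and some pointed the other way. Among these were SNHG12 at 0.62, SNHG1 at 0.32 and MIR100HG at -0.72. MALAT1, NEAT1 and NORAD were not called, at 0.16, 0.14 and 0.18.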

How the data were processed

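Poly-A RNA-seq libraries (3 DMSO, 3 CCS1477) were grouped by their titles. The authors deposited estimated counts per gene, not normalized, of which 10.2% to 10.7% of nonzero values in a library were not whole, and TPM, which the authors scaled by length and to the same sum in each library. The submitters' processing notes name Trimmomatic 0.39. The sources used here do not give the aligner, quantifier, genome build or strand setting. Coordinates are those of the files; 80.1% of the gene IDs shared with GENCODE 29 (GRCh38) had the same position there, but only 71 of the 137 LINC members (51.8%) and 7 of the 14 called ones.

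Counts were rounded and filtered by filterByExpr (minimum count 10, minimum total 15). TMM scaling and the quasi-likelihood test of edgeR 4.0.16 in R 4.3.3 followed, with no covariates and Benjamini-Hochberg adjustment over all genes. SE is the log2 fold change divided by the square root of the F statistic. CPM uses TMM-scaled totals. DESeq2 1.42.0, limma 3.58.1, other scalings and filters, a replicate block and leave-one-out fits were alternatives. The procedure was tested on simulated data.

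The neighbour of a LINC gene is the tested gene with the smallest gap that has a name other than a LINC number or clone name. Named genes are the called members, the 10 highest by mean TPM, those at the edge of the rule, those detected in 1 group, and neighbours of called members. LINC00319, LINC00313 with SIK1, LINC00265, LINC00668, LINC01184 with SLC12A2, and LINC00472 are named outside this rule, after their values were seen. The neighbour of 1 called member is not reported here. Members, lists and rules were chosen with earlier results of these data known.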

Additional observations from a re-analysis of the deposited data

How the results depend on the processing

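The number of LINC genes lower with CCS1477, 12 in the main fit, was 3 on both the log2(TPM + 1) and log2(TPM + 0.1) scales. There, 2.86% and 2.75% of all genes were lower. It was 4 at an adjusted p under 0.01 (5.71% of all genes) and 3 among the 43 tested members overlapping no other gene (10.7% of all genes). When each library was left out it was 6 to 12 (6.08% to 11.6% of all genes). The number higher, 2 in the main fit, was 1 in DESeq2 (7.5% of all genes) and on both TPM scales (1.96% and 1.88%). It was also 1 at an adjusted p under 0.01 (2.55% of all genes) and 0 among members overlapping no other gene (7.23% of all genes). When each library was left out it was 1 to 5 (3.16% to 8.55% of all genes). RLE size factors gave 12 lower and 3 higher, where 10.3% and 7.52% of all genes were called. For limma-voom the numbers were 13 and 2 (10.6% and 7.3% of all genes). With no filter, 14 and 3 of 137 tested members were called (7.34% and 5.74% of all genes). A minimum sum of 200 left 68 tested members, with 10 lower and 2 higher. Among 108 tested members with whole counts, a setting chosen after seeing the data, 8 were lower and 2 higher. Both used the main fit, with 10.7% and 7.23% of all genes. The median log2 fold change, -0.014, was 0.052 on the log2(TPM + 0.1) scale and -0.045 to 0.096 when each library was left out, with the highest value without DMSO 3.

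With the replicate block 1 LINC gene was higher and 10 were lower, against 5.35% and 8.75% of all genes. LINC00665 (adjusted p = 0.0577), LINC00857 (0.0749) and LINC00910 (0.0812) lost their calls under it. Same-numbered libraries had correlations of -0.0872, -0.196 and -0.00671 in their deviations from the group means. Libraries with different numbers had correlations of -0.187 to 0.268. With 3 libraries in each group, these values cannot decide whether the numbers mark paired samples.

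Among the 22 genes followed through every setting (the 14 called and the most abundant), 4 changed sign in some setting, and none of the 4 was called in the main comparison. LINC02802 was at -0.49 on both TPM scales, at -0.041 without DMSO 1 and at up to 0.309 when other libraries were left out, LINC00680 at -1.005 and -1.03, and LINC00205 at -0.34 and -0.35. LINC01145 was at 0.003 with library size alone, 0.040 and 0.041 on the TPM scales, and between -0.117 and 0.075 when each library was left out, with 0.075 without DMSO 2. LINC00680 passed the threshold without DMSO 3 (log2 fold change 0.79, adjusted p = 0.0253). The causes were not tested. Some called genes had few counts, and LINC01503 had 1 to 6 counts in a CCS1477 library.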
